A study of Mus musculus with 6 samples.

Results

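Prostaglandin enzymes are described here as a group of 10 genes, chosen by name: Ptgs1 and Ptgs2, the cyclooxygenases; Ptges, Ptges2, Ptges3, Ptgds, Hpgds and Ptgis, the terminal synthases; and Hpgd and Ptgr1, which break prostaglandins down. Every probe set (a set of short probes read as 1 value) listed under those symbols was taken. The group held 13 probe sets of 8 genes, of 45037 probe sets on the array other than its controls and 18193 genes with a probe set of their own. No probe set listed under Ptgs1 was in the annotation table, so Ptgs1 was not analysed here. The 2 probe sets of Ptges3 are also listed for the pseudogene Ptges3-ps, so they are given apart and assigned to neither.

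Mouse fat cells of the inguinal depot, a white fat pad, had been differentiated in culture. Expression was read on 6 arrays, 3 of control cells and 3 of cells treated with rosiglitazone at 1 uM over 4 days. This drug, of the thiazolidinedione class, activates PPARγ, the nuclear receptor that drives fat cell differentiation, and the series concerns the activation of beige fat, in which white fat cells take on traits of brown ones. Strain, sex and age of the mice are not given in the sources used here, nor is whether the 3 samples of a group were separate cultures, so the p-values rest on array-to-array spread that could be technical alone.

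Prostaglandins are short-lived lipid signals. Phospholipases free arachidonic acid from membranes, a cyclooxygenase turns it into an unstable intermediate, and terminal synthases convert that into prostaglandin E, prostaglandin D or prostacyclin, which act on receptors at the surface of nearby cells until they are taken up and inactivated. In fat, prostaglandin E acting through a receptor that lowers cyclic AMP is known to restrain lipolysis, prostacyclin is known to promote differentiation of fat cell precursors, and some products derived from prostaglandin D can bind PPARγ.

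Of the 13 probe sets, 12 were bright enough to test and 11 of these differed between the groups at an adjusted p under 0.05: 5 were higher with rosiglitazone and 6 were lower. Ptges, Ptges2 and Hpgd were higher; Ptgs2, Ptgds, Hpgds, Ptgis and Ptgr1 were lower. The array as a whole responded widely, and 51.9% of the 27022 probe sets tested were called, 21.2% as higher and 30.7% as lower. Calls of at least 1.5-fold were made for 8 of the 12 member sets, 3 higher and 5 lower, against 16% of all probe sets tested (5.15% higher and 10.9% lower). Because 2 of the 12 sets, for Ptgs2 and Ptgds, were kept only through their control arrays, which favours a difference, the counts among the other 10 are given too. Of those, 9 were called, 6 of them at least 1.5-fold (3 higher and 3 lower). The share called among all probe sets bright enough in both groups was not computed, so these counts have no like background. The arrays of one group lay wholly on one side of the other for 11 member sets, which 58.3% of all probe sets tested also did. In bulk RNA, fewer cells of a type and less RNA per cell cannot be told apart.

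Upstream sequences are shown for genes that moved in opposite directions, as a record of the region in front of each. They are the 250 bases before the annotated start (RefSeq, GRCm38.p6), 5′ to 3′ on the strand of the gene. They belong to Ptges (chr2:30903298-30903547, minus strand) and Hpgd (chr8:56294302-56294551, plus strand), which were higher, and to Ptgs2 (chr1:150099781-150100030, plus strand), Ptgds (chr2:25469750-25469999, minus strand) and Ptgr1 (chr4:58987079-58987328, minus strand), which were lower. Capitals mark matches on either strand to 6 motifs: the nuclear receptor half-site AGGTCA, its direct repeat spaced by 1 base (which contains the half-site), the C/EBP palindrome TTGCGCAA, the E-box CACGTG, the TATA box TATAAA and the GC box GGGCGG.
Ptges: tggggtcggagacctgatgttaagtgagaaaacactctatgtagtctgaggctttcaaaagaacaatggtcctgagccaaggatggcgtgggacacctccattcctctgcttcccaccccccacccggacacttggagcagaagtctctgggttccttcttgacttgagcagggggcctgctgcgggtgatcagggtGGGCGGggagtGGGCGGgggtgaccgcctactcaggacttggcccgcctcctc
Hpgd: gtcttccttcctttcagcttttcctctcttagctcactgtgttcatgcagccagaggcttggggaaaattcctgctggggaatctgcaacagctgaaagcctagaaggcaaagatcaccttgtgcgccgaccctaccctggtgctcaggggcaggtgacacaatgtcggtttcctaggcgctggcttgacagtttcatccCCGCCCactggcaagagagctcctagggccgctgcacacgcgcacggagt
Ptgs2: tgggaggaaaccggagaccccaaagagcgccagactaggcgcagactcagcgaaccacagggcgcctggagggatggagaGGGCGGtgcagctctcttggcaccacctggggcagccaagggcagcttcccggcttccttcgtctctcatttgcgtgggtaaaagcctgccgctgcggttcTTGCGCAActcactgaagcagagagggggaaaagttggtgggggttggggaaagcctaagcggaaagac
Ptgds: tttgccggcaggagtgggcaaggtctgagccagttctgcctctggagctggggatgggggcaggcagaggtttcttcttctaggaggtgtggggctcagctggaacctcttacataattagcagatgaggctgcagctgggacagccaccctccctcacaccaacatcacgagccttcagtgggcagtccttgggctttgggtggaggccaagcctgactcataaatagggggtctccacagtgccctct
Ptgr1: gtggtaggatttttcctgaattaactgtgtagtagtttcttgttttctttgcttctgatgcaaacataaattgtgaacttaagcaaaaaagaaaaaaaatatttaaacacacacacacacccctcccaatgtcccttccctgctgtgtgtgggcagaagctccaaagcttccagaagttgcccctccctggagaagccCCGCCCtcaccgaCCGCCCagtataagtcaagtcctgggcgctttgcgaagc

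Windows were held for 9 of the 10 genes. The C/EBP palindrome stood in the Ptgs2 window, 69 to 62 bases before the start, and in 0.164% of 32851 such windows of all genes. C/EBP proteins are transcription factors of fat cell differentiation. GC boxes stood in the windows of Ptges, Ptges3, Hpgd, Ptgs2 and Ptgr1, genes higher and lower with the drug among them, and in 32.7% of all windows. Ptges2 had an E-box, which 6.02% of windows held. None of the 9 windows held the half-site, which 14.0% of windows held, its repeat (0.0335%) or TATAAA (12.4%). A match here is a run of letters and not a measured site.

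**Figure D1:**
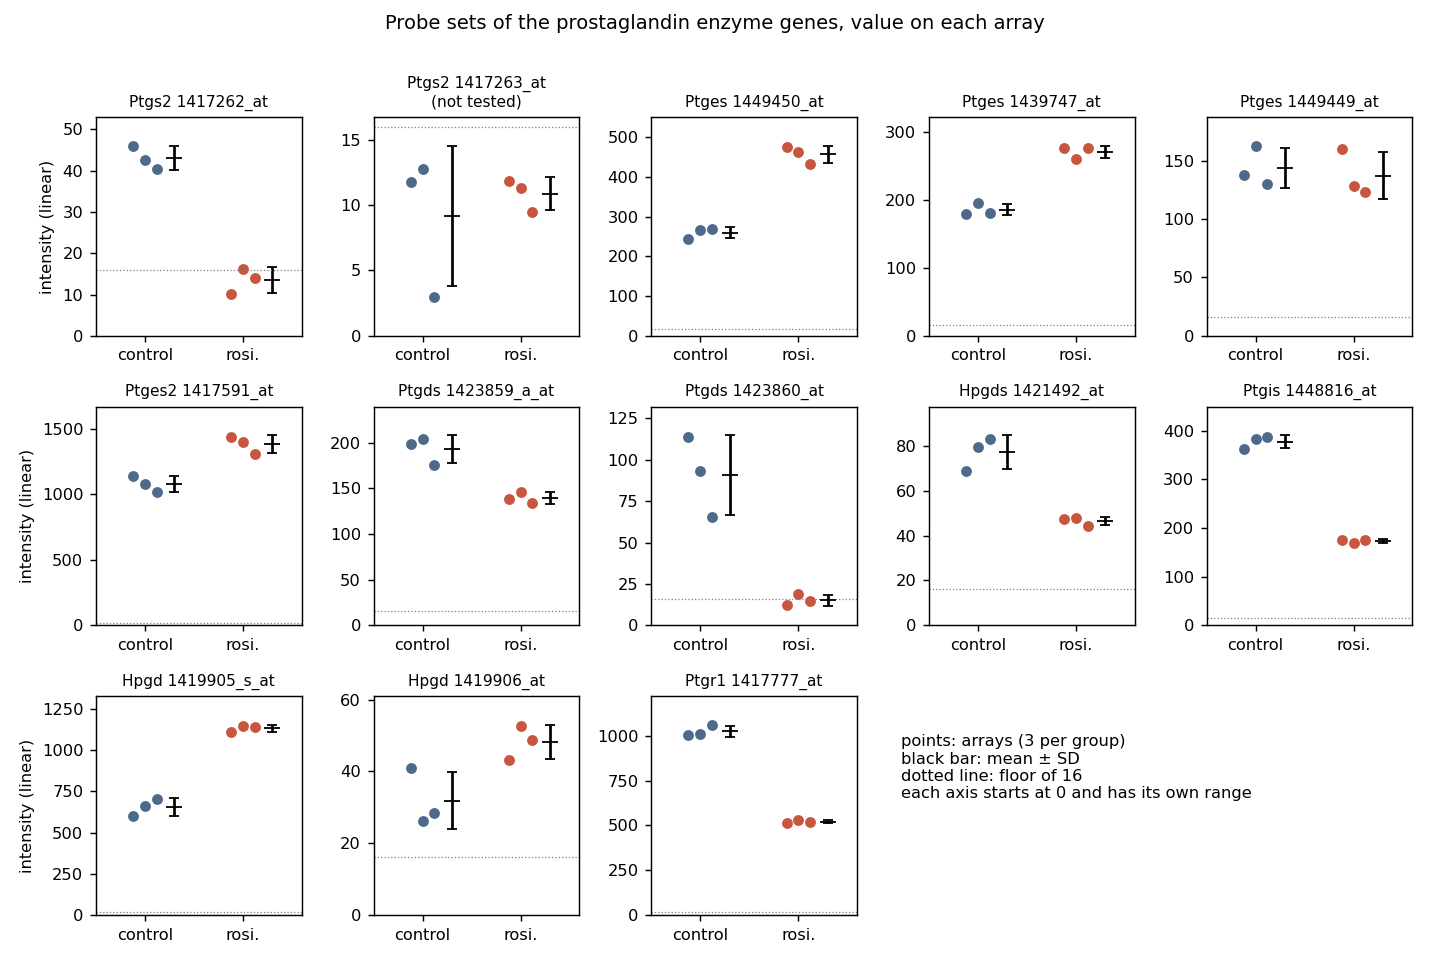
Intensity of each of the 13 probe sets on the 3 control and 3 rosiglitazone arrays, on linear axes that start at 0 and differ between panels; the black bar is the mean ± SD and the dotted line the floor of 16. The groups overlap for Ptges set 1449449_at and for the untested Ptgs2 set 1417263_at.

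Ptgs2 encodes the inducible cyclooxygenase. Its set 1417262_at read 46.1, 42.7 and 40.3 on the control arrays and 10.1, 16.3 and 14.0 on the rosiglitazone arrays. The groups did not overlap, and 2 of the 3 treated values lay under the floor of 16 to which low intensities were raised before log2 was taken. With that floor the log2 change was −1.42 (SE 0.22, adjusted p = 4.9e-05), and with a floor of 64 all 6 values lay at the floor and there was no call. The mean of this set, 28.2, was just inside the limit of 27.3 for testing. The other Ptgs2 set, 1417263_at, was under that limit and was not tested: it read 2.97 to 12.7 in control and 9.45 to 11.9 with rosiglitazone, without separating the groups.

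Ptges encodes the microsomal prostaglandin E synthase, the inducible enzyme that acts downstream of Ptgs2. Set 1449450_at read 244, 265 and 269 in control and 475, 463 and 434 with rosiglitazone, a log2 change of 0.82 (SE 0.06, adjusted p = 1.7e-08), or 1.76-fold. Set 1439747_at read 179.9, 195 and 181 in control and 276, 260.2 and 276 with rosiglitazone, a log2 change of 0.55 (SE 0.07, adjusted p = 5.4e-06). All treated values of these sets lay above all control values. Set 1449449_at did not follow them: it read 138, 163 and 129.9 in control and 160.2, 128 and 123 with rosiglitazone, overlapping throughout, with a log2 change of −0.07 (95% interval −0.31 to 0.17, adjusted p = 0.638).

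The changes of the Ptges sets were compared within arrays. The change of 1449450_at exceeded that of 1449449_at by 0.89 on the log2 scale, and that of 1439747_at exceeded it by 0.62; in both cases the 3 treated arrays lay outside the range of the controls. An exact two-sided permutation test gave p = 0.1 for each, the smallest that 3 against 3 arrays allow, and 0.12 adjusted over the 6 pairs of sets compared within genes. Which transcripts each set reads was not tested. With the mean of the 3 sets in place of the brightest, Ptges was higher by 0.43.

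Ptges2, a membrane-associated protein named as a second prostaglandin E synthase, had 1 set. It read 1138, 1079.9 and 1018 in control and 1442, 1400.04 and 1307 with rosiglitazone. Every treated array was above every control array, and the log2 change was 0.36 (SE 0.05, adjusted p = 1.2e-05), or 1.28-fold. The sets listed for both Ptges3, which encodes the chaperone partner of HSP90 that was also described as a cytosolic prostaglandin E synthase, and its pseudogene had means of 4837 ± 81.6 and 4742 ± 175.3 (1460221_at; SD, n = 3 each) and of 3714 ± 117.4 and 3916 ± 183.1 (1417998_at) in control and treated cells. Their groups overlapped, with log2 changes of −0.03 (adjusted p = 0.459) and 0.08 (adjusted p = 0.0923), and neither passed the test. Set 1417998_at was called higher without control replicate 3 (0.10), without rosiglitazone replicate 1 (0.11) and with array weights (0.095). After median centring both were called higher, at 0.09 and 0.20, and after quantile normalization 1460221_at was called lower, at −0.08.

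Both genes for prostaglandin D synthases were lower. Ptgds encodes the lipocalin-type enzyme, a secreted protein that also carries small lipids, and its brighter set, 1423859_a_at, read 199, 205 and 176 in control and 139, 146 and 134 with rosiglitazone. The groups did not overlap, and the log2 change was −0.47 (SE 0.08, adjusted p = 1.9e-04). The dimmer set, 1423860_at, read 114, 93.1 and 65.6 in control and 12.1, 18.7 and 14.8 with rosiglitazone, where 2 of 3 values lay under the floor. Its log2 change was −2.39 (SE 0.21, adjusted p = 1.0e-07). With a floor of 64, above every treated value, it was −0.47 and not called. The size of this fall thus depends on the floor, and it ran from −2.61 to −0.47 over the alternatives that tested the set.

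Both Ptgds sets were lower with rosiglitazone, but the sizes of their falls cannot be set side by side. The dimmer set was tested only through its control arrays, and 2 of its 3 treated values lay under the floor of 16. With the floor of 16, the log2 difference within arrays, 1423859_a_at minus 1423860_at, lay between 0.81 and 1.43 in control. With rosiglitazone it lay between 2.96 and 3.11, a shift of 1.92 (exact two-sided permutation p = 0.1, adjusted 0.12). The floor enters 2 of the 3 treated differences and the filter favours a fall of the dimmer set. This test therefore cannot decide whether the falls differ. The suffix a marks a set designed to read several transcripts of a gene. The mean of both sets gave a log2 change of −1.43.

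Hpgds encodes the haematopoietic prostaglandin D synthase, a glutathione-dependent enzyme known from mast cells, macrophages and some T cells. Its only set read 68.7, 79.5 and 83.2 in control and 47.3, 47.7 and 44.4 with rosiglitazone. The groups did not overlap, with a log2 change of −0.73 (SE 0.13, adjusted p = 2.9e-04), or 1.65-fold lower; with a floor of 64 it was −0.26 and not called (adjusted p = 0.0505). In the same arrays 11 of 11 tested macrophage markers were lower, and the sum of the intensities of the 12 listed macrophage genes was 13698 to 15066 in control and 4632 to 5096 with rosiglitazone. The defining macrophage genes Adgre1 and Cd68 had means of 733 and 976 in control and 309 and 429 with rosiglitazone. Mast cell markers were dim: 3 of 9 were bright enough to test, 0 of these passed the test, and the defining genes Cpa3 and Kit read at most 28.7 and 18.4 on any array. The part of other cell types in the Hpgds result was not tested.

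Ptgis encodes prostacyclin synthase, an enzyme of the cytochrome P450 superfamily found in vessel walls and stromal cells. It read 362, 384 and 386 in control and 176, 168 and 175 with rosiglitazone. The fall was 2.18-fold, with no overlap (log2 change −1.12, SE 0.06, adjusted p = 5.2e-10). Stromal marker lists moved the same way: 8 of 9 tested preadipocyte and fibroblast genes were lower and 0 higher, with summed intensities of 28209 to 28765 in control and 13525 to 14123 with rosiglitazone, and 5 of 8 smooth muscle and pericyte genes were lower and 2 higher, with sums of 8429 to 8850 and 4932 to 5048. Their part in the Ptgis result was not tested. Endothelial defining genes were near the floor, Pecam1 at 6.03 to 20.4 and Cdh5 at 18.2 to 27.9 over the 6 arrays, while Flt1 and Tek were lower in their brightest sets and gave 2 of the 3 tested endothelial genes. The other tested gene, Egfl7, had 0.26 in its brightest set and did not pass the test, and its sets 1435823_x_at (0.54) and 1451428_x_at (0.90) were called higher. Of 4 Flt1 sets, 2 did not pass the test, at −0.04 and 0.05.

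The enzymes of breakdown moved in opposite directions. Hpgd encodes the dehydrogenase that carries out the first step of inactivation. Its set 1419905_s_at read 599, 661 and 705 in control and 1108, 1149 and 1140.1 with rosiglitazone. All treated arrays lay above all control arrays, and the log2 change was 0.79 (SE 0.05, adjusted p = 4.6e-09), or 1.73-fold. The suffix s marks a set whose probes may also read a related transcript. The dimmer Hpgd set, 1419906_at, read 40.8, 26.2 and 28.3 in control and 43.1, 52.6 and 48.8 with rosiglitazone. Its log2 change of 0.62 (SE 0.20, adjusted p = 0.0166) was a weak call, lost without control replicate 2 (0.50), control replicate 3 (0.55) or rosiglitazone replicate 2 (0.56). The changes of the Hpgd sets differed by 0.17, within the spread of the arrays (exact two-sided p = 0.8).

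Ptgr1 encodes a reductase that carries out the next step on the oxidised prostaglandins and also inactivates leukotriene B. It read 1004, 1009 and 1061 in control and 514, 527 and 519 with rosiglitazone. The groups stood far apart relative to their spread, and the log2 change was −0.98 (SE 0.04, adjusted p = 3.7e-11), a fall of 1.97-fold. Among all probe sets tested, 4.16% had a change as low or lower. For Ptgis that share was 2.81%, and the rise of set 1449450_at of Ptges stood at the 97.7th percentile. The similarly named gene Ptgr2, which is not a member, went the other way in its brightest set (log2 change 0.37, adjusted p = 7.4e-08).

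**Figure D2:**
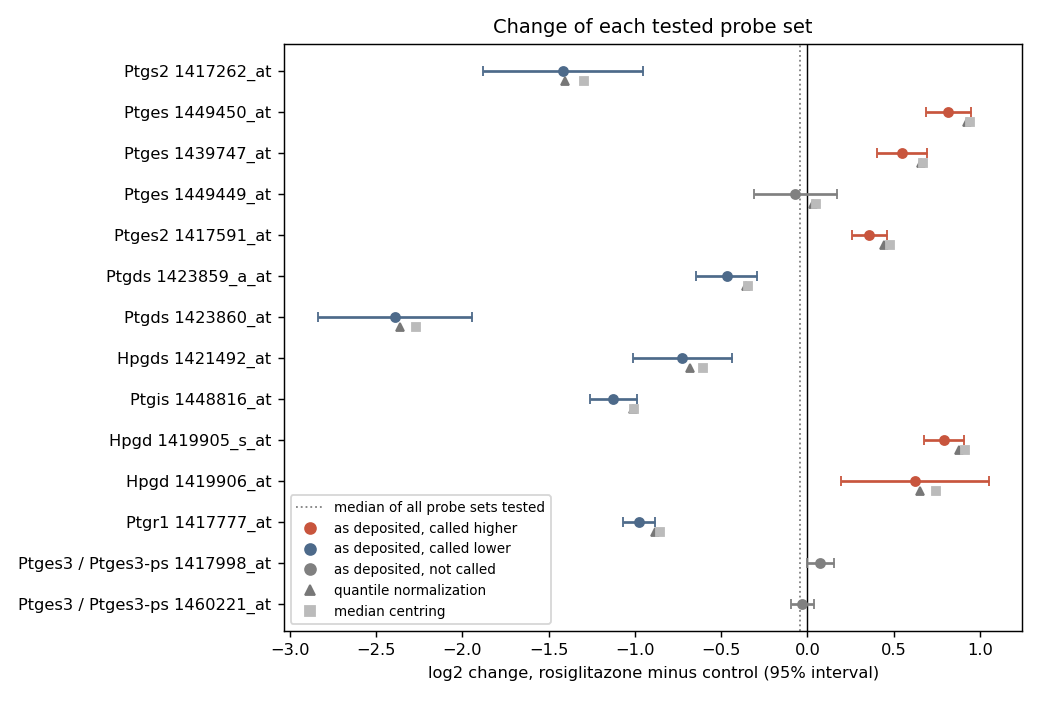
Log2 change (rosiglitazone minus control) of the 12 tested member probe sets and of the 2 sets shared by Ptges3 and Ptges3-ps, with 95% intervals from limma; small symbols give the 12 member sets after quantile normalization and median centring. The 5 sets called higher and the 6 called lower kept their direction and call on all 3 scales.

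How the arrays are scaled bears on small changes, because median centring raised the median log2 change of all probe sets from −0.04 to 0.08, a shift of 0.12. On the deposited scale 40.8% of all calls were higher; this share was 52.4% after quantile normalization and 60.5% after median centring. The 11 member calls, 5 higher and 6 lower, stood on all 3 scales. The change of the brighter Ptgds set was −0.47 as deposited and −0.35 after either of the other scalings, that of Ptges2 0.36, 0.45 and 0.48. Array medians were 44.5 to 46.7 in intensity. The ratio of the 3′ to the 5′ control probe set, a sign of RNA integrity, was 0.984 to 1.12 for Gapdh on all arrays, and for actin 1.75 to 1.85 in control and 2.29 to 2.58 with rosiglitazone; its part in the results was not tested.

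Fat cell markers were bright: Adipoq, which encodes adiponectin, had a mean intensity of 12829 ± 147 in control and 13158 ± 238 with rosiglitazone, and Fabp4, the fat cell fatty acid binding protein, 17647 ± 326 and 17148 ± 245 (SD, n = 3 each). Of 9 tested fat cell markers 3 were higher and 2 lower. Their summed intensity was 84600 to 85647 in control and 82561 to 83223 with rosiglitazone. That sum includes the bright gene Retn, the largest fall of the list, with means of 11225 in control and 6139 with rosiglitazone (log2 change −0.87). The largest rise was in Aqp7, with means of 358 and 882 (1.30), and 1.96 in its dimmer set. Each gene was read by its brightest set, and that of Fabp4 held the highest value of control array 1, 17895. Of its dimmer sets, 1451263_a_at (−0.004) was not called, while 1424155_at (0.14) and 1425809_at (0.21) were called higher. Cd36 had 0.19 in its brightest set and 0.16 and 0.50 in dimmer ones. A dimmer Lpl set was called lower, at −0.08. Mesothelial markers, 1 of 5 higher and 1 lower, were dim, with Msln at 25.3 to 35.6 and Upk3b at 1.00 to 10.9.

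**Figure D3:**
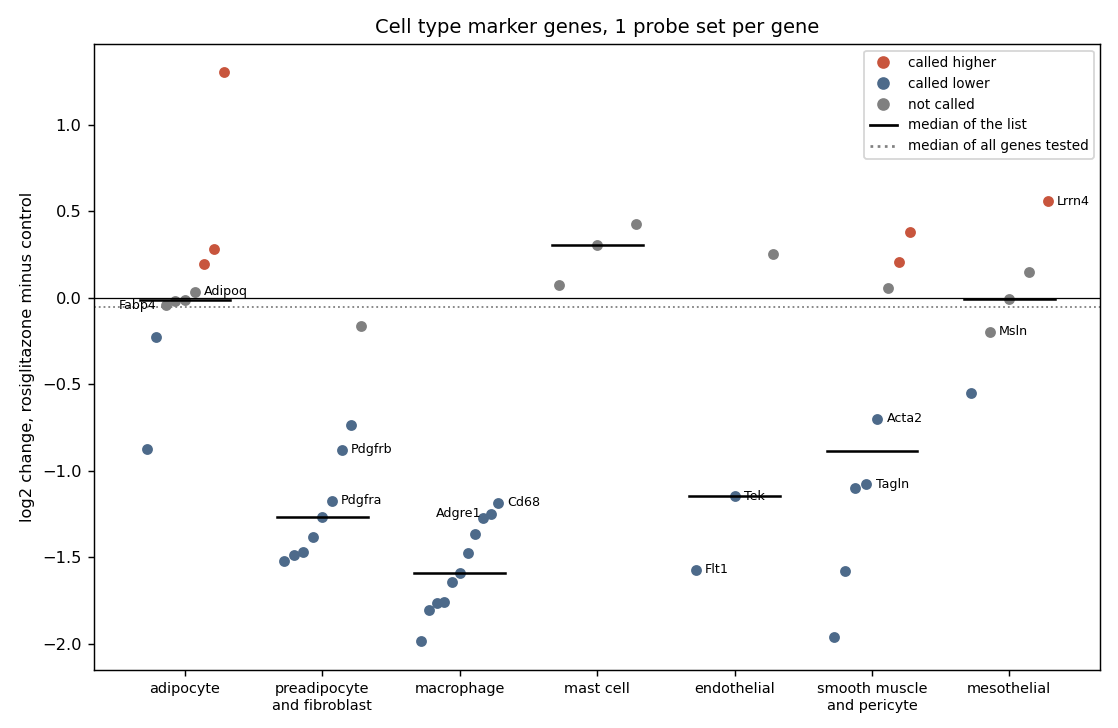
Log2 change of the tested genes of 7 cell type marker lists, 1 probe set per gene, with the median of each list as a black bar. Preadipocyte, macrophage and most smooth muscle markers lie below 0, while the fat cell list is centred near 0 with a median of −0.01.

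Genes that feed, export, sense or further process prostaglandins were read from 5 lists of the pathway, each gene by its brightest tested set. Of 61 tested genes 15 were higher and 25 lower, against 23% higher and 35.3% lower of all 12952 genes read in the same way (58.3% in either direction). The median log2 change was −0.07, and −0.05 for all genes. After median centring the pathway calls were 22 higher and 21 lower.

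**Figure D4:**
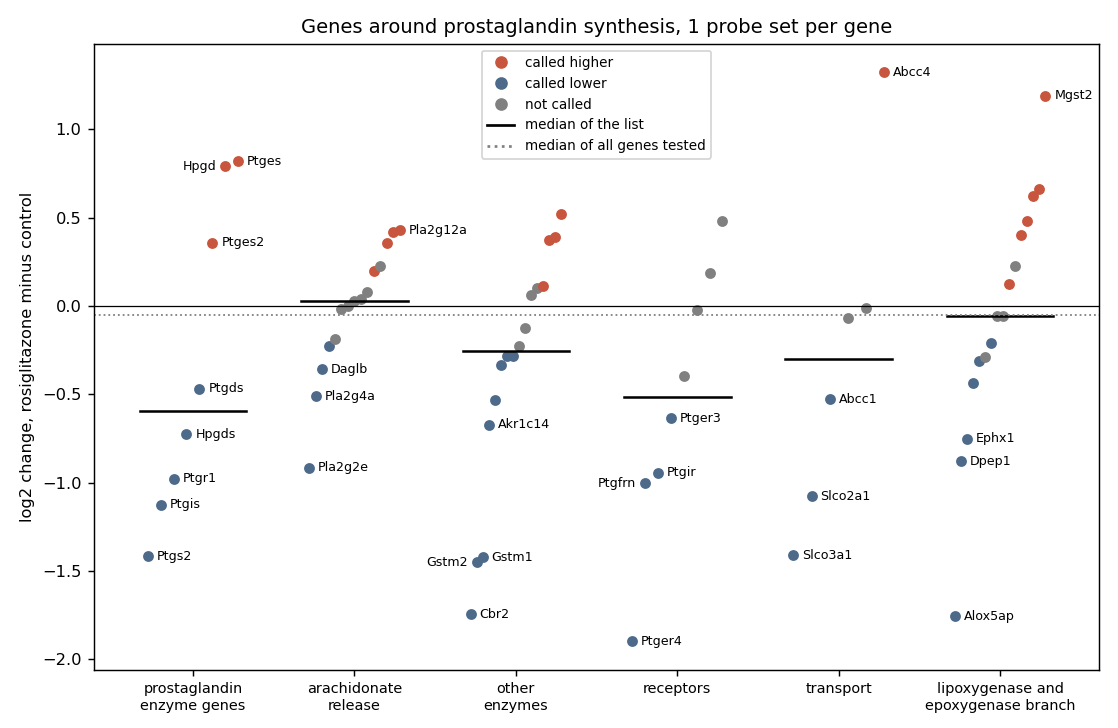
Log2 change of the 8 member genes and of the tested genes of the 5 pathway lists, 1 probe set per gene; black bars are list medians and the dotted line is the median of all genes tested. The receptor list holds 4 genes called lower, among them Ptgfrn, which is not itself a receptor, and 0 called higher, and the exporter gene Abcc4 is the highest point.

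In the receptor list 4 of 8 tested genes were lower and 0 higher, with a median log2 change of −0.52. Without Ptgfrn, which is not itself a receptor, 3 of 7 were lower, with a median of −0.40, and of these 3 Ptger3 was lower in 1 of its 2 sets. Ptger4, a prostaglandin E receptor that raises cyclic AMP, read 77.9, 84.3 and 77.1 in control and 23.0, 26.5 and 12.2 with rosiglitazone, where 1 array lay under the floor. These groups did not overlap, and the log2 change was −1.90 (SE 0.20, adjusted p = 7.2e-07). It too was bright enough to test only through its control arrays, whose mean was 79.8 against 20.6, and with a floor of 64 the change was −0.32 and still called.

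Ptgir, the prostacyclin receptor, which also raises cyclic AMP, read 159.6, 161 and 155 in control and 88.9, 77.2 and 81.3 with rosiglitazone. Its log2 change was −0.94 (SE 0.09, adjusted p = 4.0e-07), so the synthase and the receptor of prostacyclin were both lower. Ptgfrn, a membrane protein named for its effect on the prostaglandin F receptor, read 729, 687 and 754 in control and 382, 367 and 334 with rosiglitazone (log2 change −1.004, SE 0.06, adjusted p = 9.0e-10).

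Ptger3, the prostaglandin E receptor that lowers cyclic AMP in fat cells, gave no single answer. Set 1450344_a_at had a log2 change of −0.64 (adjusted p = 0.0092), which was −0.53 and not called without control replicate 1, and set 1425251_at had 0.50 (adjusted p = 0.0812); the mean of both was −0.07. Both were dim, with means under 47 in each group. Ptgfr, the prostaglandin F receptor, had −0.40 (adjusted p = 0.0969) in its brightest set and −0.75 (adjusted p = 0.0078) in 1453924_a_at. Its brightest set was called without rosiglitazone replicate 2 (−0.55) or 3 (−0.52). Ptger2 (0.48, adjusted p = 0.0844), Ptgdr, the prostaglandin D receptor (0.19, adjusted p = 0.39), and Tbxa2r, the thromboxane receptor (−0.02, adjusted p = 0.841), did not pass the test; Ptger2, tested only through its treated arrays (mean 33.4 against 23.9), was called after median centring (0.60), with array weights (0.56), without a variance trend and with the lowest 20% of sets left out.

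Of 6 tested transport genes 1 was higher and 3 were lower. Abcc4, which pumps prostaglandins and cyclic nucleotides out of cells, read 384, 394 and 377 in control and 962, 929 and 998 with rosiglitazone. The treated arrays were all above the controls, with a log2 change of 1.32 (SE 0.05, adjusted p = 3.0e-12). Slco2a1, the prostaglandin uptake transporter that leads them to breakdown, read 294, 309 and 305 in control and 146, 150.3 and 134 with rosiglitazone, a log2 change of −1.08 (SE 0.07, adjusted p = 3.8e-09). Another Slco2a1 set, 1420914_at, had −1.07 but was tested only through its control arrays (mean 43.8 against 21.3), and 2 further sets had −0.12 and 0.19 and were not called. The transporter genes Slco3a1 (−1.41) and Abcc1 (−0.53) were lower as well, though a dimmer Abcc1 set had 0.08. Slco2b1 (−0.01) and Abcc2 (−0.07) did not pass the test in their brightest sets, while Slco2b1 set 1433933_s_at had −0.71 and was called.

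Among 16 other tested enzyme genes of prostanoid synthesis and breakdown, 4 were higher and 8 lower, with a median of −0.26. The falls with the largest size were in Cbr2, a carbonyl reductase gene, at −1.75 (SE 0.03), and in the glutathione transferase genes Gstm2 at −1.45 and Gstm1 at −1.42, whose products are close relatives of one another, so their probes may read both. Cbr2 read 2953, 3014 and 2943 in control and 907, 863 and 888 with rosiglitazone. Akr1c14, an aldo-keto reductase gene, was lower by a log2 change of −0.67 at dim intensities. The 4 genes called higher were Akr1b8 (0.52), Cbr4 (0.39), Ptgr2 (0.37) and Cbr1 (0.11), each in its brightest set. Gsto1 (0.06) and Cbr3 (−0.13) did not pass the test in their brightest sets; for Gsto1 that set was called higher after median centring (0.19), with array weights (0.08) and without rosiglitazone replicate 1 (0.10), and set 1416531_at was called higher as deposited (0.11). Cbr3 was called lower without rosiglitazone replicate 1 (−0.16), without replicate 3 of that group (−0.15) and with array weights (−0.18).

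In the release of arachidonic acid 4 of 15 tested genes were higher and 4 lower, with a median of 0.03. Pla2g4a, the cytosolic phospholipase that supplies arachidonic acid to the cyclooxygenases, read 520.2, 583 and 518 in control and 389, 377 and 369 with rosiglitazone. Its groups did not overlap, and the log2 change was −0.51 (SE 0.06, adjusted p = 1.8e-06). Pla2g2e, a secreted phospholipase gene, was lower by a log2 change of −0.92 at a control mean of 63.8 (−0.03 with a floor of 64), and Daglb, a diacylglycerol lipase gene, by −0.36. Pla2g12a, another secreted phospholipase gene, was higher by 0.43. Pla2g2d, of the same family, was called higher by 0.42 (adjusted p = 0.0323) in its brightest set, whose groups overlapped, and had −0.34 in 1454157_a_at, which did not pass the test. Mgll, the monoacylglycerol lipase gene, was higher by 0.36. Plaat3 (−0.00) and Lpcat3 (0.03) did not pass the test as deposited and were called higher after median centring, at 0.12 and 0.15. After quantile normalization Plaat3 was called lower, at −0.097.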

How the data were processed

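The authors deposited 1 table of linear intensity, 1 value per probe set and array, with 45101 probe sets on 6 Affymetrix mouse arrays. RNA was isolated with TRIzol and columns and labelled with biotin, per the labels' protocols. How probes were summarised and arrays normalized was not given in the sources used here. Groups came from the sample titles, because the treatment text names rosiglitazone for all 6 samples.

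Probe sets were named through the platform's annotation. From the deposited values, those under 16 were raised to 16 before log2 was taken. The 64 control sets and the 40% of sets with the lowest mean (under 27.3) were left out, which kept 27022. The test was limma's (version 3.58.1, R 4.3.3): lmFit on group alone and two-sided eBayes with trend. P-values were adjusted by Benjamini-Hochberg across every set tested, at a threshold of 0.05. The procedure was tested on simulated data in which far fewer sets changed than were called here. How it performs with so many changed sets was not tested. The number of arrays limits the precision. The text names all members, every tested receptor and, per other pathway list, up to 4 called genes of largest change whose groups did not overlap and the 2 uncalled genes with the highest mean; other probe sets and genes were picked with their values in view. The members and lists were chosen with earlier results of these data known. The alternatives covered scaling, floor, filter, variance model, gene summary, call rule, replicate block and each array left out.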

Additional observations from a re-analysis of the deposited data

How the results depend on the processing

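All 21 alternatives were run. Of the 12 tested member sets, Ptgis, Ptgr1, the brightest Ptges set and Hpgd set 1419905_s_at kept direction and call in all 21, with log2 changes of −1.15 to −1.0025, −0.99 to −0.86, 0.43 to 0.94 and 0.71 to 0.92. In 1 of the 21 the mean of a gene's sets stood in for its brightest set. The low ends for Ptges (0.43) and Hpgd (0.71) are such means and not values of those sets. The 11 member sets called, 5 higher and 6 lower, were 7, 4 and 3 with a floor of 64. They were also 7, 4 and 3 with the lowest 60% of sets left out, where fewer member sets were tested. Over the whole array 11305 sets were called with a floor of 64 and 12037 with the lowest 60% left out. With 1 set per gene, or the mean of its sets, the member calls were 3 higher and 5 lower, all 8 genes. Most genes of the array were called too: 58.3% of 12952 by the brightest set, with p-values adjusted over every set tested. limma's treat against a 1.5-fold change kept 6 member calls, 2 higher, 13 pathway genes, 2 higher and 11 lower, and 2067 of all sets, 566 higher and 1501 lower. Over all sets 14015 were called, 5721 higher and 8294 lower; median centring gave 8709 higher. One set per gene gave 7692 calls (3057 and 4635), the mean of sets 7191 (2912 and 4279). Leaving out each array in turn gave 10 to 11 member calls, 37 to 43 pathway calls (40 with all arrays) and 12380 to 13550 calls over all sets. Hpgd set 1419906_at was also lost without a filter (adjusted p = 0.1) and with the lowest 20% of sets left out (adjusted p = 0.0573). Hpgd set 1419906_at, Ptgs2, the dimmer Ptgds set and Hpgds also lost their calls with a floor of 64, at 0, 0, −0.47 and −0.26. Set 1460221_at of Ptges3 and Ptges3-ps turned to 0.0933 after median centring, and Plaat3 to 0.12; the cause is the shift of that scaling. With the replicate number as a block, 11 member sets were called (5 higher, 6 lower) and 13777 of all sets. Deviations from the group mean on same-numbered arrays of the groups correlated at −0.0407, −0.0201 and 0.0227. For arrays of unlike number the correlations were −0.0566 to 0.0688. Whether the numbers pair the samples cannot be told from these values.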

Other observations

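The branch of arachidonic acid metabolism that does not pass through cyclooxygenase was mixed. Of 16 tested genes of lipoxygenases, leukotriene enzymes and epoxide handling, 6 were higher and 6 lower, with a median log2 change of −0.06. Alox5ap, which presents arachidonic acid to the leukotriene-forming lipoxygenase and is abundant in macrophages, read 555, 508 and 513 in control and 144, 163 and 159.6 with rosiglitazone, a log2 change of −1.76 (SE 0.07, adjusted p = 7.0e-12). Mgst2, a membrane glutathione transferase that can make leukotriene C, read 364, 384 and 361 in control and 840.3, 835 and 855 with rosiglitazone, a log2 change of 1.19 (SE 0.05, adjusted p = 1.0e-11). Dpep1, a dipeptidase of leukotriene breakdown, was lower at −0.88, and Ephx1, an epoxide hydrolase gene, at −0.75. Ephx2, another epoxide hydrolase gene, was brighter and went the other way, with means of 7117 in control and 11277 with rosiglitazone (log2 change 0.66, adjusted p = 1.2e-11). Ltc4s, the main leukotriene C synthase gene, had −0.06 (adjusted p = 0.318) and Cyp2j6 −0.06 in its brightest set, and neither passed the test; Cyp2j6 set 1440691_at was lower at −0.31 (adjusted p = 0.0111), and the mean of its sets at −0.19 was called.

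Over the 6 arrays, with log2 values taken relative to the control mean, the genes with the profile nearest to set 1449450_at of Ptges among 12951 others were Dusp3, Derl1 and Armcx1, at root mean square distances of 0.03, 0.03 and 0.04 and log2 changes of 0.81, 0.83 and 0.82. Nearest to set 1423860_at of Ptgds were Lfng, Serpina3n and Car3, at distances of 0.15, 0.19 and 0.21 and log2 changes of −2.29, −2.40 and −2.39. On 2 treated arrays set 1423860_at and Lfng both lay under the floor of 16, so that match is partly fixed by the floor. These are descriptions of 6 arrays in 2 groups.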
